A study of Mus musculus with 6 samples.

Results

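Antisense non-coding RNA loci are genes that are read from the strand opposite another gene and hold no annotated protein. They were taken as every row of the deposited table whose gene identifier has the class antisense in GENCODE M21, a mouse annotation on the GRCm38 build. Of the 680 rows, 672 matched an identifier there and 66 had that class; the other 8 could not be classed. RNA had been sequenced from MC3T3, a mouse pre-osteoblast line that the labels call bone stem cells. The 3 control libraries came from untreated cells, and the 3 exosome libraries came from cells given exosomes of HUVEC, human umbilical vein endothelial cells, for 48 hours. Exosomes are small vesicles that cells release, and the labels describe no control vesicles. All 6 libraries are of 1 line. The titles number them as biological repeats, and nothing says that each was a culture of its own, so the p-values cover the spread among these 6 libraries, which may be technical.

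Antisense RNAs are often made in small amounts, often stay in the nucleus, and can act on the gene they face by being transcribed through it. The best studied member of the 66 is Airn, the imprinted RNA made from the paternal chromosome, which silences Igf2r and neighbouring genes on that chromosome. For the other loci no function is stated here. The authors deposited only genes they had called changed in these 6 libraries, so a difference between groups was a condition of being listed, and each adjusted p given below is too small. The sources used here do not give whether reads were counted by strand. Reads of an antisense locus and of the gene it faces therefore cannot be told apart wherever their exons overlap, and reads of unspliced RNA of the facing gene cannot be told apart anywhere in its body. The share of exon bases that lie in exons of other genes is given for the loci of at least 1 FPKM and those singled out.

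Levels are FPKM, fragments relative to exon length and to the size of the library. Depth recovered from these values was 39630467 to 48369052 reads in the control libraries and 51315991 to 54429032 in the exosome libraries. The 66 loci together held 3278, 3926 and 4261 recovered reads in control replicates 1, 2 and 3 and 2227, 2096 and 2065 in exosome replicates 1, 2 and 3, with 11 to 5247 reads per locus over the 6 libraries and a median of 91.5. Of the osteoblast markers looked up, 1 of 12 was a row of the table (Dmp1), as were 0 of 7 endothelial, 0 of 5 macrophage and leukocyte, 0 of 5 adipocyte, 1 of 5 muscle (Actc1) and 1 of 5 cartilage markers (Col11a2). The identity of the cells could therefore not be checked from these rows.

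The antisense loci were mostly lower with exosomes. Their summed level was 55.8, 64.4 and 61.1 FPKM in control replicates 1, 2 and 3 and 35.1, 32.0 and 32.4 FPKM in exosome replicates 1, 2 and 3, with no overlap of the groups. Without Airn, Tbx3os1 and Ttc39aos1, the 3 loci with the largest falls on the log2(FPKM + 1) scale, the sum was 36.3, 44.6 and 35.2 FPKM in control libraries and 23.6, 23.1 and 23.1 FPKM in exosome libraries, again without overlap. Every row was listed because it differed between these same libraries, and 58 of the 66 loci were lower. Separate sums follow largely from that selection, and the second sum is no independent check. Of all rows 86.9% did not overlap between groups. In bulk RNA, fewer cells that make an RNA and less of it per cell cannot be told apart. Between 3 and 4 of the loci were listed at 0 in each control library and 18 to 20 in each exosome library. Those listed at 0 in every exosome library were 11 of 66, beside 12.8% of all rows, and 2 were listed at 0 in every control library.

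By limma's moderated test on log2(FPKM + 1), with Benjamini-Hochberg adjustment over all 680 rows, 43 of the 66 passed an adjusted p of 0.05 (65.2%), beside 59.3% of all rows. Lower calls numbered 38 of 66, beside 43.8% of all rows, and higher calls 5 of 66, beside 15.4% of all rows. The mean was lower with exosomes at 58 loci and higher at 8, beside 74% and 26% of all rows. The groups did not overlap at 59 loci (89.4%), beside 86.9% of all rows in either direction and 64.1% of all rows that did not overlap and were lower. The median log2 difference was -0.23 for antisense loci and -0.13 for all rows, and the members ranged from -1.00 to 0.75. Ratios of group means were close to those of the whole table: the median fold was 2.80 for the 53 antisense loci with values above 0 in both groups and 2.77 for all rows, and the smallest was 1.97 and 1.93.

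Both the count of calls and its direction depended on choices. Leaving out exosome replicate 1, 2 or 3 left 20, 14 or 18 calls among the 66, while leaving out a control library left 31 to 38. Centring each library on its median over the table, which takes out a shift of -0.15 (exosome minus control, log2 scale), gave 24 calls, 12 lower and 12 higher, in place of 38 and 5. With that centring 45 of 66 were lower. Because the table holds only rows selected as changed, its median is not a neutral reference.

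**Figure D1:**
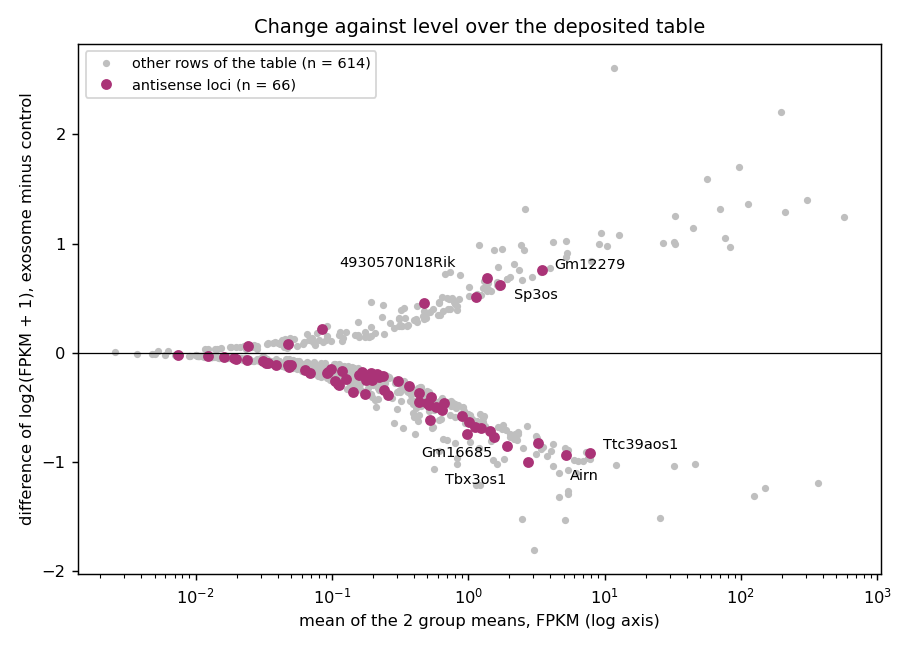
Difference of log2(FPKM + 1), exosome minus control, against the mean of both group means in FPKM (log axis), with each point 1 row of the table. The 66 antisense loci (purple) lie on the same 2 arms as the other 614 rows (grey), 58 of them below 0, and their changes run from -1.00 to 0.75.

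Level set which loci could be read closely. A group mean of at least 1 FPKM was reached by 16 antisense loci, 12 lower and 4 higher, and all 16 were called with no overlap of the groups; of all rows at that level 149 of 173 were called (86.1%) and 102 were lower. The other 50 stayed under 1 FPKM, where 46 were lower and 27 called (54%), beside 401 lower and 254 called among the 507 rows of the table below that level (50.1%). The median control mean over the 66 was 0.298 FPKM and the median exosome mean 0.105 FPKM.

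**Figure D2:**
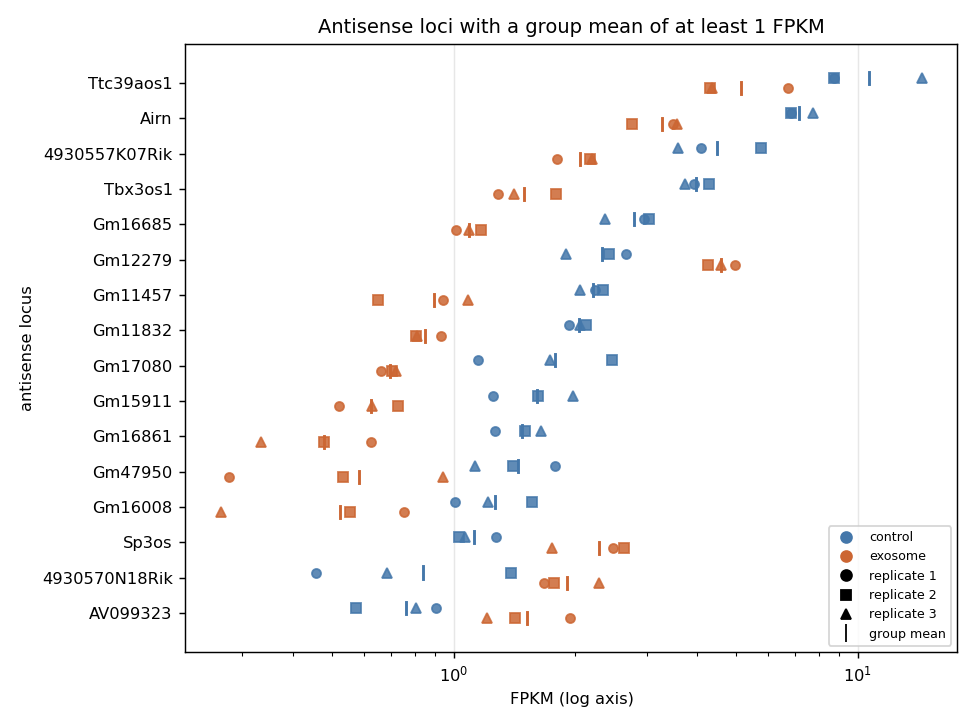
FPKM (log axis) of the 16 antisense loci with a group mean of at least 1 FPKM, with 1 symbol per library, replicate by shape, and a vertical bar for the group mean. Gm12279, 4930570N18Rik, Sp3os and AV099323 were higher in all 3 exosome libraries, and the other 12 loci were lower in all of them.

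Airn, Tbx3os1 and Ttc39aos1 had the largest falls on the log2(FPKM + 1) scale, which favours loci of high level; as ratios of means they were 2.18-, 2.66- and 2.07-fold lower, below the median fold of 2.80, and Ttc39aos1 had the smallest fold of the called falls. Airn lies at chr17:12741311-12860136 on the plus strand, starts within Igf2r, the gene of the receptor that carries insulin-like growth factor 2 to lysosomes, and runs out past the start of that gene. Its level was 6.84, 6.82 and 7.76 FPKM in control replicates 1, 2 and 3 and 3.49, 2.76 and 3.56 FPKM in exosome replicates 1, 2 and 3. All exosome libraries lay below all control libraries, by a fold of 2.18 between the means of 7.14 ± 0.54 and 3.27 ± 0.44 FPKM (SD, n = 3). The log2 difference was -0.93 ± 0.09 (SE; limma adjusted p = 0.00512), and none of the exon bases of Airn lies in an exon of another gene. Its values were not whole multiples of 1 read for the exon length used here (off by up to 0.354 reads). The exon model behind the deposited values may differ for Airn, which was not tested. Its recovered reads and shared exon bases rest on the GENCODE M21 exons and carry that limit.

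Tbx3os1 faces the start of Tbx3, a T-box transcription factor, and shares 3.63% of its exon bases with other genes. Its level was 3.93, 4.28 and 3.73 FPKM in control libraries and 1.29, 1.79 and 1.41 FPKM in exosome libraries, without overlap. It was 2.66-fold lower, with a difference of -1.00 ± 0.09 on the log2(FPKM + 1) scale (limma adjusted p = 0.00469). Some loci of lower level had larger folds, such as 3.08 for Gm16861 and 14.5 for 4930414N06Rik. The latter was picked for its fold after values were seen and shares 21.9% of its exon bases. It held 14, 12 and 24 reads in control libraries and 2, 0 and 2 in exosome libraries, so its fold rests on few reads. Both Airn and Tbx3os1 remained called in every fit that left out 1 library.

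Ttc39aos1, which lies 468 bases from the start of Ttc39a, a gene of the tetratricopeptide repeat family, and overlaps no gene on the other strand, had the highest level of all 66. It was at 8.73, 8.72 and 14.4 FPKM in control libraries and 6.71, 4.30 and 4.36 FPKM in exosome libraries. Control replicate 3 stood well above the other controls and exosome replicate 1 above the other exosome libraries, although the groups did not overlap. The 2.07-fold lower mean gave a log2 difference of -0.91 ± 0.25 (limma adjusted p = 0.0308). That call was lost without control replicate 2 or 3 (adjusted p = 0.0536 and 0.0502) and without exosome replicate 2 or 3 (0.0925 and 0.0888).

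The promoters of Airn and Ttc39aos1 are shown because they are the 2 members of highest mean FPKM and share no annotated exon base with another gene. Each window runs from 250 bases before to 50 bases after the RefSeq start (RefSeq, GRCm38.p6), 5′ to 3′ on the strand of the gene, with each CG in capitals. For Airn it is chr17:12741061-12741360 on the plus strand, and for Ttc39aos1 chr4:109406208-109406507 on the minus strand, whose RefSeq start lies 102 bases from that of GENCODE.
Airn: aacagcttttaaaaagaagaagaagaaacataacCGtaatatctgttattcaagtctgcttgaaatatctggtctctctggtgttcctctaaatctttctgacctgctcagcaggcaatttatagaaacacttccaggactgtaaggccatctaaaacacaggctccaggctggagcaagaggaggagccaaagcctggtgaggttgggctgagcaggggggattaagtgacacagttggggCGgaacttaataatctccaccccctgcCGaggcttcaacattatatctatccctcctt
Ttc39aos1: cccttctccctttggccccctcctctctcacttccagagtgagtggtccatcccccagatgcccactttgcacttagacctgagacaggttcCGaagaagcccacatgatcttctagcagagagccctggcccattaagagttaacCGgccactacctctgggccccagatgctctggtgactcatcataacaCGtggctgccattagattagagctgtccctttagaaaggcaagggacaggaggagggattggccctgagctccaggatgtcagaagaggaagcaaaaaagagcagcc
Each window holds 3 CG sites. RefSeq windows were matched by symbol for 25 of the 66 loci, and 10 of these (40.0%) held at least 10 CG sites, beside 43.5% of all 32851 windows. The RefSeq starts lay 0 to 46262 bases from the GENCODE start, farthest at Gm15738 and then Gm10634 (28244 bases). Some windows therefore do not lie at the GENCODE start of their locus. ATF4, the stress transcription factor named in the title of the series, binds amino acid response elements of the form TGATGNAA. Those letters, searched on both strands, were in 0 of the 25 windows and in 3.97% of all windows. That says only that these letters are not in those windows.

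Within the body of Airn, 4 further rows of the table lie, and all 4 fell with it. CT030636.1, a long intergenic RNA annotated on the strand opposite Airn, was at 6.85, 8.86 and 8.06 FPKM in control libraries and 1.44, 2.97 and 3.99 FPKM in exosome libraries. CT030636.2, of the same class and strand, was at 3.50, 2.28 and 2.64 FPKM and then 1.25, 1.25 and 1.27 FPKM. Neither overlapped between groups, with log2 differences of -1.29 ± 0.28 (limma adjusted p = 0.0188) and -0.74 ± 0.12 (0.0104). Gm16574, a processed pseudogene on the same strand as Airn, went from 5.05, 4.71 and 6.91 FPKM to 2.32, 2.42 and 2.72 FPKM. Gm7162, a processed pseudogene on the opposite strand, went from 4.04, 3.36 and 2.18 FPKM to 1.52, 1.26 and 1.66 FPKM. Both pseudogenes also stayed apart between groups, at -0.90 ± 0.14 (adjusted p = 0.00898) and -0.74 ± 0.18 (0.0260). The call of CT030636.1 was lost without control replicate 2 or exosome replicate 2 (adjusted p = 0.0541 and 0.0556). That of Gm7162 was lost without control replicate 2 or exosome replicate 1, 2 or 3 (0.0726, 0.0669, 0.0779 and 0.0630).

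By the GENCODE M21 exons, these 4 loci share no exon base with Airn and lie 43571 to 78508 bases into its body at their near edge. The sources used here do not give whether reads were assigned by strand, so reads from unspliced RNA of Airn cannot be told apart from transcripts of CT030636.1, CT030636.2 or Gm7162. Gm16574 lies on the strand of Airn, so its reads could not be separated from unspliced Airn RNA even by strand. The level of Airn relative to each facing row, as a difference of log2(FPKM + 1), did not pass an exact permutation test over the libraries (two-sided, adjusted over the 6 facing pairs of listed rows, p = 0.84, 0.8 and 0.84 for CT030636.1, CT030636.2 and Gm7162), nor did the plain FPKM ratio (exact adjusted p = 1 for each). With 3 libraries against 3, that test cannot go below an unadjusted p of 0.1. Igf2r itself was not a row of the table and was not analysed here.

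**Figure D3:**
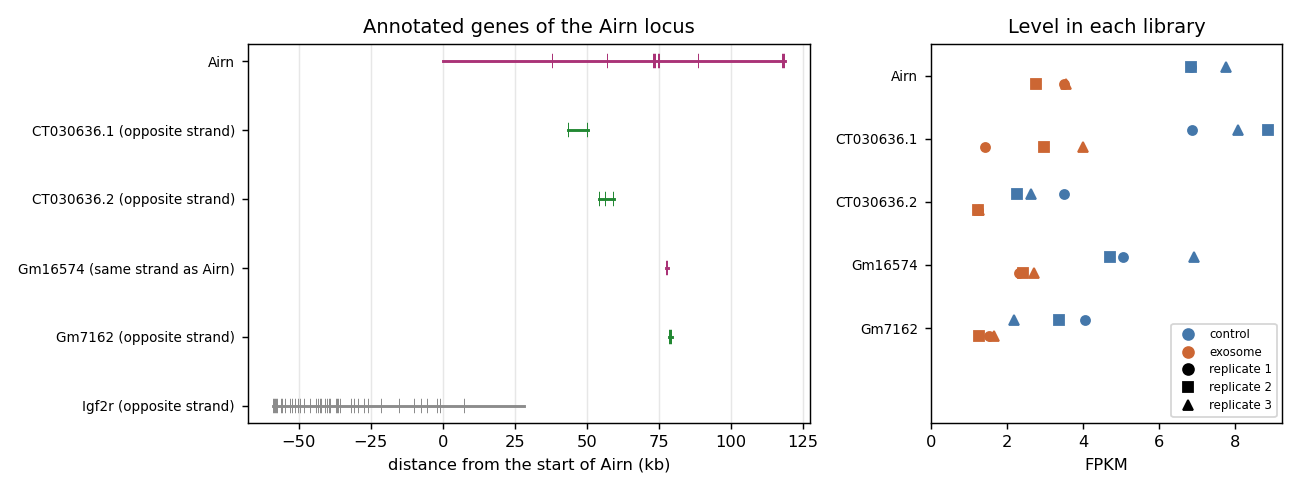
Left, annotated genes of the Airn locus by distance from the start of Airn in kb, with exons as thick bars and Igf2r in grey; right, FPKM of Airn and the 4 listed rows in its body, 1 symbol per library. All 5 were lower in each exosome library than in any control library, Airn between 2.76 and 3.56 FPKM against 6.82 to 7.76 FPKM.

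Gm16008, Gm16861 and Gm11457 also fell and have exon bases inside coding exons of the gene they face. Other loci have such bases too, such as Gm17080, with a run of 186 bases in Slc29a1. Reads from shared bases can come from either gene. Only the longest shared stretch that is purely coding is shown for Gm16008, Gm16861 and Gm11457. In all they share 414, 560 and 227 exon bases with Tnfrsf18, Nudt16l1 and Dnttip1. Gm16008 spans Tnfrsf18, which encodes the co-stimulatory receptor GITR of T cells. Gm16861 faces the start of Nudt16l1, a Nudix-family protein that binds the DNA repair factor 53BP1, and also Mgrn1, a ubiquitin ligase. Gm11457 overlaps the end of Dnttip1, a subunit of a histone deacetylase complex. Sequences are from GENCODE M21 transcripts (GRCm38), 5′ to 3′ on the antisense strand, with the bases that lie in a coding exon of the facing gene in capitals and up to 20 flanking bases in lower case. The capitals cover chr4:156026387-156026537 for Gm16008, chr16:4939378-4939633 for Gm16861 and chr2:164767863-164767950 for Gm11457, all on the minus strand.
Gm16008: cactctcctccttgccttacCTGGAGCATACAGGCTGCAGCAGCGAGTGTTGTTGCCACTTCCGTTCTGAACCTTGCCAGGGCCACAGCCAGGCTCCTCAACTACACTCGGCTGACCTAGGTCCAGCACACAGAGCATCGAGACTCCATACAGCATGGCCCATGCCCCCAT
Gm16861: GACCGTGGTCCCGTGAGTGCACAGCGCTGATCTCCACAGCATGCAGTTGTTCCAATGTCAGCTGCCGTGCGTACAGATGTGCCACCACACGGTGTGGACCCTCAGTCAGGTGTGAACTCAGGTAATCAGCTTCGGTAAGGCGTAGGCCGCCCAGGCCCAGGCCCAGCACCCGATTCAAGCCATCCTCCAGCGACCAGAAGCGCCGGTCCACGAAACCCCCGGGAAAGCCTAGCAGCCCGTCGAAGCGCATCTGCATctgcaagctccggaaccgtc
Gm11457: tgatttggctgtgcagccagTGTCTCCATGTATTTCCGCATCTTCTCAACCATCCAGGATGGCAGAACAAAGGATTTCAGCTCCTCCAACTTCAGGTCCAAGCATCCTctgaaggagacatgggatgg
The reverse complement of the capitals, which are 151, 256 and 88 bases long, was found in 5 transcripts of Tnfrsf18, 5 of Nudt16l1 and 1 of Dnttip1.

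Gm16008 was at 1.01, 1.56 and 1.22 FPKM in control libraries and 0.753, 0.555 and 0.265 FPKM in exosome libraries. Exosome replicate 3 was the lowest, and the groups did not overlap. The log2 difference was -0.58 ± 0.15 (limma adjusted p = 0.0286). Without control replicate 2 or 3 the adjusted p was 0.0742 and 0.0619, without exosome replicate 2 or 3 it was 0.0749 and 0.0630, and after median centring 0.0556, so the call was lost in each. Of its exon bases 54.3% lie in exons of other genes.

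Tnfrsf18, the only main facing gene of the 66 loci that was itself a row of the table, was at 1.32, 1.84 and 1.67 FPKM in control libraries and 0.642, 0.820 and 0.614 FPKM in exosome libraries, and fell too (log2 difference -0.62 ± 0.09, limma adjusted p = 0.00849). The exons of Gm16008 and Tnfrsf18 share 414 bases. The log2 of the plain FPKM ratio of Gm16008 to Tnfrsf18, added after seeing the data, averaged -0.36 ± 0.11 in control and -0.51 ± 0.72 in exosome libraries (SD, n = 3; exact permutation test, two-sided, p = 0.7, 1 adjusted over 5 pairs), and its groups overlapped. The difference of the log2(FPKM + 1) values, exosome minus control, had the opposite sign, 0.05 (exact adjusted p = 0.9), so no direction of the ratio is given. Gm37090, a TEC locus (a gene model still without experimental proof) on the same strand as Gm16008 that shares 305 of its exon bases, fell as well (log2 difference -0.56 ± 0.08, limma adjusted p = 0.00666).

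Gm16861 was at 1.27, 1.50 and 1.65 FPKM in control libraries and 0.623, 0.477 and 0.334 FPKM in exosome libraries, 3.08-fold lower on average (log2 difference -0.74 ± 0.09, limma adjusted p = 0.00634). The exosome libraries all lay below the lowest control. Gm11457 was at 2.23, 2.34 and 2.05 FPKM in control libraries and 0.940, 0.650 and 1.09 FPKM in exosome libraries (log2 difference -0.77 ± 0.10, limma adjusted p = 0.00634), again without overlap. Shared exon bases made up 35.5% of Gm16861 and 30.9% of Gm11457, and both remained called whichever library was left out.

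Another 6 loci of at least 1 FPKM fell. Gm16685, facing the start of Il7, the gene of the lymphocyte growth factor interleukin 7, was at 2.96, 3.04 and 2.36 FPKM in control libraries and 1.01, 1.17 and 1.09 FPKM in exosome libraries. The exosome libraries were close to each other and well below the controls (log2 difference -0.86 ± 0.08, limma adjusted p = 0.00512). Of its exon bases 6.60% lie in exons of other genes. Gm11832, inside Rad54b, which encodes a DNA repair protein, was at 1.93, 2.13 and 2.06 FPKM and then 0.933, 0.808 and 0.812 FPKM. It had the narrowest spread of the group, with a log2 difference of -0.71 ± 0.04 (adjusted p = 0.00216), and shares 1.62% of its exon bases in this way. Gm15911, inside B4galt7, which encodes an enzyme that builds the linker of proteoglycan chains, was at 1.25, 1.62 and 1.97 FPKM and then 0.522, 0.727 and 0.626 FPKM (log2 difference -0.68 ± 0.11, adjusted p = 0.0111), with 13.6% of its exon bases shared. Gm16685, Gm11832 and Gm15911 remained called whichever library was left out.

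4930557K07Rik overlaps the start of Acrbp, which encodes a binding protein of sperm acrosin, and all of Ing4, which encodes a chromatin reader of histone acetyltransferase complexes. On the other strand 4930557K07Rik also overlaps Zfp384 and Gm44597. It was at 4.10, 5.75 and 3.59 FPKM in control libraries and 1.80, 2.18 and 2.20 FPKM in exosome libraries, a clear separation (log2 difference -0.82 ± 0.16, limma adjusted p = 0.0156) that every leave-one-out fit called; 28.7% of its exon bases lie in exons of other genes. Ing4, a row of the table that shares no exon base with it, fell from 0.375, 0.276 and 0.427 FPKM to 0.177, 0.0863 and 0.110 FPKM (log2 difference -0.27 ± 0.06, adjusted p = 0.0166; 0.0556 and 0.0526 without exosome replicates 2 and 3, 0.138 after median centring). The log2 of the plain FPKM ratio of 4930557K07Rik to Ing4 averaged 3.63 ± 0.67 in control and 4.11 ± 0.68 in exosome libraries (SD, n = 3; exact permutation p = 0.5, 1 adjusted over 5 pairs), with overlap. On the log2(FPKM + 1) scale the difference went the other way, -0.55 (exact p = 0.1, the smallest this design allows, and 0.6 adjusted over 6 pairs), so no direction of the ratio is given.

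Gm17080, inside Slc29a1, the gene of an equilibrative nucleoside transporter, shares 33.9% of its exon bases and was at 1.15, 2.46 and 1.73 FPKM in control libraries and 0.662, 0.702 and 0.721 FPKM in exosome libraries. The controls spread widely while the exosome libraries were nearly equal (log2 difference -0.69 ± 0.18, limma adjusted p = 0.0273). The adjusted p was 0.0614 without control replicate 3 and 0.0746, 0.0766 and 0.0727 without exosome replicates 1, 2 and 3. Gm47950, inside Ubp1, the gene of a transcription factor of the grainyhead-like family, shares 19.1% and was at 1.78, 1.40 and 1.13 FPKM and then 0.278, 0.532 and 0.940 FPKM (log2 difference -0.64 ± 0.18, adjusted p = 0.0343). Its call was lost without control replicate 1 or 2 (0.0861 and 0.0827), without exosome replicate 1 or 2 (0.0786 and 0.0948) and after median centring (0.0745). Gm47950 also overlaps Fbxl2 on its own strand, so unspliced reads of Fbxl2 could not be separated from it even by strand.

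Higher means with exosomes were found at 8 antisense loci, 5 of them called. Gm12279 lies 130 bases from the start of Ubb, a polyubiquitin gene induced by heat and protein damage, without overlapping it. It was at 2.66, 2.42 and 1.90 FPKM in control libraries and 4.96, 4.25 and 4.57 FPKM in exosome libraries. Every exosome library was above every control, by a fold of 1.97 on average (log2 difference 0.75 ± 0.10, limma adjusted p = 0.00666), and no left-out library ended the call. Ubb was not a row of the table.

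Sp3os faces the start of Sp3, which encodes a GC-box-binding transcription factor. Its exon stretch inside the coding sequence of Sp3 is shown in capitals, 109 bases at chr2:72979487-72979595 on the plus strand (GRCm38), whose reverse complement was found in 2 transcripts of Sp3.
Sp3os: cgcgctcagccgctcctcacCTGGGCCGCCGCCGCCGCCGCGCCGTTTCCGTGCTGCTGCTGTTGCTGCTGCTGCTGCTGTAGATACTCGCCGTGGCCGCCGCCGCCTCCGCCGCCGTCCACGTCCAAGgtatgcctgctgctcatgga
Sp3os was at 1.27, 1.03 and 1.07 FPKM in control libraries and 2.47, 2.64 and 1.75 FPKM in exosome libraries. Exosome replicate 3 was the lowest of its group and still above all controls (log2 difference 0.62 ± 0.12, limma adjusted p = 0.0160). The call held in every leave-one-out fit, and 12.2% of its exon bases lie in exons of other genes. Sp3 was not a row of the table.

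4930570N18Rik overlaps the end of Hsd11b1, the gene of the enzyme that regenerates active glucocorticoid inside cells. It also overlaps Lamb3 on its own strand, so unspliced reads of Lamb3 could not be separated from it even by strand. It was at 0.456, 1.38 and 0.685 FPKM in control libraries and 1.68, 1.77 and 2.29 FPKM in exosome libraries. Control replicate 2 came close to the exosome libraries without reaching them (log2 difference 0.69 ± 0.20, limma adjusted p = 0.0365). Its call was lost without control replicate 1 or 3 (0.0774 and 0.0900) and without exosome replicate 1, 2 or 3 (0.0764, 0.0889 and 0.101).

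AV099323 lies 43 bases from the start of Pcna, the gene of the sliding clamp of DNA replication. It was at 0.904, 0.573 and 0.808 FPKM in control libraries and 1.94, 1.42 and 1.21 FPKM in exosome libraries, with all exosome libraries higher (log2 difference 0.51 ± 0.13, limma adjusted p = 0.0273). Without control replicate 2 or 3 or exosome replicate 2 the adjusted p was 0.0714, 0.0565 and 0.0694. Gm36607, at the end of Adamts16, the gene of a secreted metalloprotease, was at 0.0929, 0.317 and 0.323 FPKM and then 0.865, 0.608 and 0.627 FPKM (log2 difference 0.45 ± 0.10, adjusted p = 0.0201). Its groups did not overlap, and the adjusted p was 0.0515, 0.0525 and 0.0524 without exosome replicates 1, 2 and 3.

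The other 3 with a higher mean did not pass the test and rested on few reads. Gm15819, inside Rell1, was listed at 0 in all control libraries and held 4, 8 and 1 recovered reads in the exosome libraries (limma adjusted p = 0.0705). Dgkeos, at the start of Dgke, the gene of a diacylglycerol kinase, was listed at 0 in all controls and held 0, 2 and 14 reads (adjusted p = 0.267). Gm6277, at the start of Cables1, held 0, 0 and 11 reads in control libraries and 21, 22 and 12 reads in exosome libraries (adjusted p = 0.0707).

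Among the weaker loci named after the gene they face, Dtnbos and Anxa11os fell. Dtnbos, inside Dtnb, the gene of beta-dystrobrevin, was at 0.683, 0.911 and 0.622 FPKM in control libraries and 0.277, 0.232 and 0.281 FPKM in exosome libraries. It stayed apart between groups and was called in each leave-one-out fit (log2 difference -0.46 ± 0.07, limma adjusted p = 0.00897). Anxa11os, facing Anxa11, the gene of a calcium-dependent membrane-binding annexin, held 23 reads in all and was at 0.0407, 0.0648 and 0.0917 FPKM and then 0, 0.00741 and 0 FPKM. The adjusted p was 0.0406, and it was 0.0726 to 0.107 without any 1 of control replicates 2 and 3 and exosome replicates 1, 2 and 3. Median centring turned the difference of Anxa11os to 0.06.

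Ppp1r18os, Atxn7l1os1 and Atxn7l1os2 did not pass the test. Ppp1r18os held 28 reads and was at 0.0644, 0.205 and 0.396 FPKM in control libraries and 0, 0.0703 and 0.0249 FPKM in exosome libraries, with an overlap of the groups (limma adjusted p = 0.0945). Atxn7l1os1 held 16 reads, all in control libraries, at 0.0275, 0.125 and 0.0450 FPKM (adjusted p = 0.0970). Atxn7l1os2 held 26 reads and was at 0.0125, 0.182 and 0.0717 FPKM and then 0, 0.0182 and 0 FPKM (adjusted p = 0.149). Atxn7l1os1 and Atxn7l1os2 both lie on Atxn7l1, and control replicate 2 was the highest library for both.

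Gm26861 and Gm45016 were named for their reads and for a listed facing row. Gm26861 faces the start of Chrm3, the gene of a muscarinic acetylcholine receptor, has 19 exons and held 344 reads, although its exon length of 7559 bases kept it low. It was at 0.284, 0.216 and 0.208 FPKM in control libraries and 0.0584, 0.0851 and 0.139 FPKM in exosome libraries, all below the controls (log2 difference -0.18 ± 0.04, limma adjusted p = 0.0238). The adjusted p was 0.0655 and 0.0727 without exosome replicates 1 and 2 and 0.635 after median centring. Gm45016 held 2, 4 and 6 reads in the control libraries and was listed at 0 in all exosome libraries (adjusted p = 0.0171; 0.0559 and 0.0526 without exosome replicates 2 and 3, 0.0884 after median centring). Gm45845, a row inside it on the other strand, held 5, 2 and 3 reads and was likewise listed at 0 in the exosome libraries (adjusted p = 0.0330). That call of Gm45845 was lost without control replicate 3 (0.0560) and without exosome replicate 1, 2 or 3 (0.0837, 0.0909 and 0.0874) and after median centring (0.666).

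The naming rule took every locus with the higher mean, so the 39 loci not named by it were lower by that choice. By limma 22 of these passed (56.4%), beside 50.1% of all rows under 1 FPKM. They held 11 to 268 reads each over the 6 libraries, with a median of 54, and their log2 differences ran from -0.61 to -0.02. Some were singled out after their values were seen because the gene they face is known in bone, oxygen or Wnt biology or in RNA decay. Gm16159, inside Fgfr1, a fibroblast growth factor receptor gene, held 26, 78 and 42 reads in control libraries and 23, 13 and 25 in exosome libraries (limma adjusted p = 0.0664). Gm15283, which spans Hif1a, the gene of the hypoxia-inducible factor, held 19, 48 and 31 and then 14, 12 and 21 reads (adjusted p = 0.0659). Shared exon bases made up 14.2% of Gm16159 and 14.0% of Gm15283. In both, control replicate 2 was well above the other controls, the groups did not overlap in FPKM, and neither passed.

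Gm28085, inside Xrn1, which encodes a 5′ to 3′ RNA exonuclease, held 26, 41 and 24 reads in control libraries and 16, 18 and 11 in exosome libraries, and fell (limma adjusted p = 0.0294). Its highest adjusted p was 0.0860 over the leave-one-out fits, with the call lost without control replicate 1 or any exosome library, and after median centring (0.101). Gm15401 lies inside Tcf7l1, a Wnt-pathway transcription factor gene, and also overlaps Gm37969 on the other strand. It shares 69.1% of its exon bases with these genes, 1105 bases, of which only 179 lie in exons of Tcf7l1. Gm15401 held 2, 9 and 10 reads in control libraries and was listed at 0 in the exosome libraries (limma adjusted p = 0.0475). Leaving out any single library except control replicate 1 ended that call (adjusted p up to 0.116), and median centring turned its log2 difference to 0.01. A330033J07Rik lies at the start of Id4, the gene of a helix-loop-helix inhibitor, and overlaps Gm36346 and Gm49291 on its own strand. It shares 23.9% of its exon bases, with 672 bases shared on its own strand and only 82 with Id4. A330033J07Rik held 2, 10 and 6 reads in control libraries and was listed at 0 in the exosome libraries (limma adjusted p = 0.0983).

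**Figure D4:**
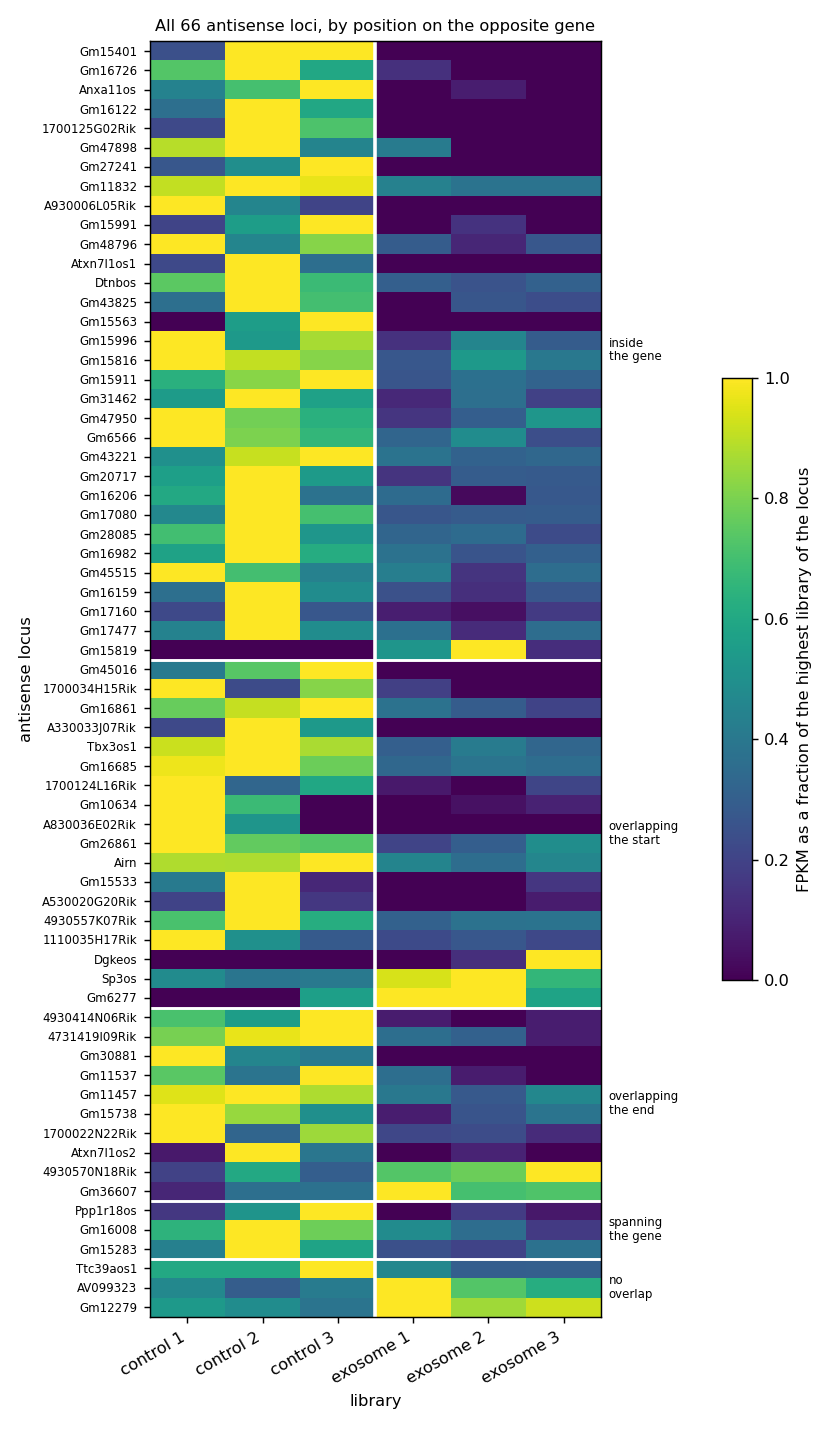
FPKM of all 66 antisense loci in the 6 libraries as a fraction of the highest library of each locus (colour, 0 to 1), grouped by position on the facing gene. The 3 control columns are brighter on average at 58 loci, and 18 to 20 loci are at 0 in each exosome column against 3 to 4 in each control column.

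The 66 loci are varied, with gene bodies of up to 439908 bases (Gm26861). They lie on 18 chromosomes, their summed exon length runs from 260 to 7559 bases with a median of 1282.5, 5 have a single exon and 41 a single transcript. A coding gene on the other strand overlaps 63 of them. Exon bases shared with another gene on either strand were found at 48, with a median share of 9.22% over the 66 and the highest share, 86.6%, at Gm11537, which faces Snx11. Of the 18 loci without a shared exon base, 14 were lower and 14 were called, 10 lower and 4 higher. Over all rows 74% were lower and 59.3% were called. Among these 18 are the called rises Gm12279, AV099323, 4930570N18Rik and Gm36607 and the called falls Airn, Ttc39aos1 and Dtnbos. Where such a locus lies within the body of the facing gene, as Dtnbos does, unspliced reads of that gene were not separated. The same holds for unspliced reads of Lamb3, which overlaps 4930570N18Rik on the same strand.

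By position, 32 loci lie inside the gene they face, 31 of them lower, with 22 called lower and 0 called higher by limma. A start was overlapped by 18 loci (15 lower; 8 called lower, 1 higher) and an end by 10 (8 lower; 6 called lower, 2 higher). The 3 that span a whole gene were all lower with 1 called, and the 3 without overlap, Ttc39aos1, Gm12279 and AV099323, were all called, 1 lower and 2 higher. The median log2 difference was -0.26 inside the gene, -0.14 at the start and -0.25 at the end. A start within 1000 bases of the start of the facing gene, as in a divergent pair, was found at 12 loci, 10 of them lower, 6 called lower and 2 higher; of the other 54, 48 were lower, 32 called lower and 3 higher. No difference between positions was tested.

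**Figure D5:**
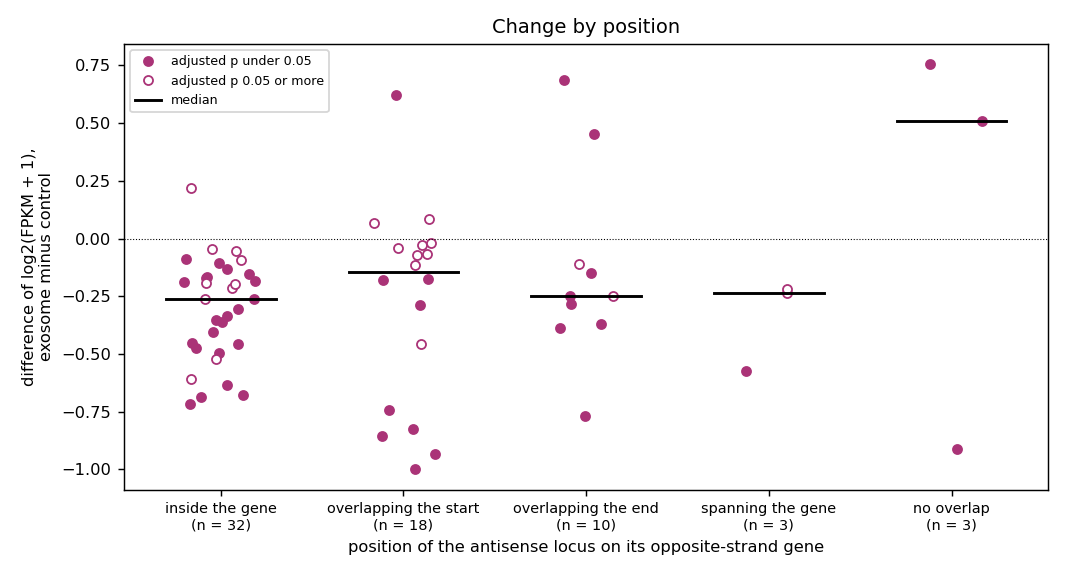
Difference of log2(FPKM + 1), exosome minus control, of each antisense locus by its position on the facing gene, with filled points at a limma adjusted p under 0.05 and a black line at the median. Inside the gene 31 of 32 points are below 0 (median -0.26), while 2 of the 3 loci without overlap are above it.

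Other annotated classes of the same table, in the same fit, are given side by side and their differences from the antisense loci were not tested. TEC loci had the lower mean in 83 of 90 cases, with 44 called and a median log2 difference of -0.13. Long intergenic RNAs were lower in 30 of 45 cases with 25 called and a median of -0.10, and protein-coding genes in 233 of 334 with 198 called and a median of -0.10. On a list of 37 symbols of studied mouse antisense RNAs, Airn was the only row of the table, and on a list of 9 nuclear-retained RNAs Malat1 and Airn were rows, both called lower. The lists were matched by exact symbol, so a locus listed under another name was missed. Gm15283, which spans Hif1a, and AV099323, near Pcna, could not match the entries Hif1aos and Pcna-as. Of a list of 25 symbols of nuclear RNA decay, 0 were rows.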

How the data were processed

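RNA of 3 control and 3 exosome libraries of MC3T3 cells was analysed. The labels' protocols name Trizol for the RNA and a SMARTer mRNA kit for the libraries. The deposited values are FPKM, per the name of the authors' deposited table, which also says that its 680 rows are the genes they had called changed. Aligner, counter, strand setting, build, annotation and calling threshold are not given in the sources used here. Groups and replicate numbers came from the sample titles.

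Gene classes, exons and positions were looked up by identifier in GENCODE M21 (GRCm38), which may not be the authors' annotation. FPKM times exon length gave whole reads, within 0.02 reads in all 6 libraries, for 659 of 672 matched rows and 65 of 66 antisense loci, and the step gave each library's depth. Of 164 antisense values of 2 to 21 reads, 68.9% were even, as counting each mate of a read pair would give, and counting errors then exceed those of the read numbers. The facing gene was the annotated gene on the other strand sharing the gene body, or else the nearest one. Where several shared it, the main facing gene was a coding gene first, then the one sharing most exon bases, then most gene body. The position classes rest on this choice.

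Values of log2(FPKM + 1) were tested with limma 3.58.1 in R 4.3.3 (linear fit with empirical Bayes, two-sided), with group as the only term. Benjamini-Hochberg adjustment ran over all 680 rows, and calls have an adjusted p under 0.05. The added 1 understates the change of low loci, so folds are ratios of mean FPKM. The fit was tested on simulated data. Facing pairs were compared by an exact permutation test (scipy 1.17.1) on differences of log2(FPKM + 1) and, added after seeing the data, on plain FPKM ratios. The alternatives were pseudocounts of 0.1 and 0.01, a mean of at least 1 FPKM, at least 20 recovered reads, median centring, the replicate number as a block, a robust trended prior, limma-voom on recovered reads, a 2-fold limit and each library left out.

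Named were all loci with the higher mean with exosomes or a symbol made from another gene's, the 10 largest falls and rises past the threshold without overlap of the groups, the 10 with most reads, those of at least 1 FPKM and those with a listed facing gene. Members, lists and this rule were chosen with earlier results of these data known. Promoter windows (250 bases before to 50 after the start) are from RefSeq.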

Additional observations from a re-analysis of the deposited data

How the results depend on the processing

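The median log2 difference of the antisense loci and the counts of calls moved with the scale. The median, -0.23, was -1.02 and -1.47 with pseudocounts of 0.1 and 0.01, -0.70 over the 14 loci with a mean of at least 1 FPKM, -0.26 over those with at least 20 reads, -0.080 after median centring and -1.57 with limma-voom. Calls over the whole table, 403, were 611 with a pseudocount of 0.01, 131 of the rows with a mean of at least 1 FPKM, 201 with the replicate block, 635 with limma-voom and 164 to 356 with 1 library left out. Calls among the antisense loci, 43, were 14 of 14 at a mean of at least 1 FPKM, 24 after centring (17 of the 43 among them), 19 with the replicate block and 14 to 38 with 1 library left out. Deviations of same-numbered libraries from their group means had correlations of -0.13, 0.08 and -0.22 over the rows. With 3 libraries per group and rows selected as changed, these values cannot decide whether the numbers pair the libraries. Lower means, 58 of 66, were 10 of the 14 loci at 1 FPKM and 14 of the 18 that share no exon base. Of the 43 calls, 13 held in every leave-one-out fit and 12 in every alternative run; of the 23 loci not called, limma-voom called 20. The 6 facing pairs became 1 when exons had to overlap.

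Centring turned 13 weak loci to a higher value, each from below 0: 1700034H15Rik (0.117), A530020G20Rik (0.106), Gm16122 (0.0385), Gm15401 (0.0143), Gm15533 (0.0762), Gm15991 (0.101), Gm10634 (0.0334), A930006L05Rik (0.0905), A830036E02Rik (0.125), Atxn7l1os1 (0.0554), Atxn7l1os2 (0.0353), A330033J07Rik (0.0793) and Anxa11os (0.0582). In 16 of the 66 the control level lies under the size of the shift taken out (-0.15), so at those any fall is smaller than it. The difference in log2 ratio of Gm16008 to Tnfrsf18, 0.05, ran from -0.0808 (without exosome replicate 1, of opposite sign) to 0.142, and that of Airn to Gm7162, -0.20, from -0.368 to 0.0442 (without control replicate 3, of opposite sign); the cause was not tested. Plain FPKM ratios, added after seeing the data, changed sign for Gm16008 to Tnfrsf18 (-0.154), 4930557K07Rik to Ing4 (from -0.55 to 0.474) and Airn to CT030636.2 (0.0016); both scales differ only in the added 1. Depth limits the loci with few reads, and their single values carry little weight.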
